A study of Mus musculus with 6 samples.

Results

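The genes described here are 9 regulators of the mammary bud and placode, which are the epithelial thickening and ingrowth from which the mammary gland arises in the embryo. They are the T-box transcription factors Tbx3 and Tbx2, the homeobox factors Msx1 and Msx2, the ligand Pthlh and its receptor Pth1r, and the ligand Eda, its receptor Edar and the adaptor Edaradd. They were chosen by name for their part in mammary budding, with earlier results of these data known. All 9 had a probe on the array, with 11 probes in all out of 55681 probes, of which 27235 matched a single gene and together covered 20660 genes.

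The samples came from female C57Bl6J mice, and each of the 6 was hybridized to a SurePrint G3 array from Agilent, which carries mouse gene expression probes read in 1 color. The 3 E18.5 fetal samples were taken from the rudiment at embryonic day 18.5, late in gestation, and had been sorted as CD31-CD45-Ter119-EpCAM++CD49f+. The 3 adult basal samples were sorted from glands of mice of 8–12 wk by the phenotype EpCAM+CD49f+, after removal of cells with CD31, CD45, Ter119 or BP-1. No transgene, deletion or treatment was used in either population. The 2 groups therefore differed in age, in the level of EpCAM (an epithelial surface protein) set by the gate, in the use of BP-1 to remove stromal cells from the adult sample only, and in digestion, which per the methods ran overnight for adult glands and for a much shorter time for fetal glands. These differences cannot be told apart. Whether the glands of several animals were combined for a sample is not given in the sources used here. The labels number the samples of a population as biological replicates.

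Budding begins when Wnt, ectodysplasin and fibroblast growth factor signals and T-box factors mark placodes along the mammary line of the surface ectoderm. Ectodysplasin (Eda) binds Edar on placode cells, and Edaradd links the receptor to kinases that release NF-kB. Once the bud has formed, its epithelium secretes parathyroid hormone-related protein (Pthlh), which acts on Pth1r in the mesenchyme beneath it, while Msx2 acts downstream in that mesenchyme and Msx1 and Msx2 are also present in the epithelium. E18.5 falls after these steps, when the bud has already grown into a small branched rudiment, so the arrays compare later uses of these genes and not budding itself.

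Of the 9 regulators, 3 had higher signal in fetal cells (Pthlh, Edar and Tbx3), 2 had higher signal in adult basal cells (Tbx2 and Pth1r), and 4 (Msx1, Msx2, Eda and Edaradd) did not pass. This count uses limma with Benjamini-Hochberg adjustment over all 20448 probes tested, an adjusted p of at most 0.05 and a difference of at least 2-fold, a rule that called 30.0% of those probes, 16% as higher in fetal and 14.0% as higher in adult basal cells. With the stricter Holm adjustment and the same limits, which called 11.1% of the probes (5.92% higher in fetal and 5.18% higher in adult basal cells), 1 of the 9 was called, namely Tbx2. A probe was tested if either group reached a low-signal limit of log2 5.949. Edar (adult basal mean 4.34), Pth1r (fetal mean 4.30) and Tbx2 (fetal mean 2.42) reached it only in the group where they were higher. The fetal and adult values did not overlap for 7 of the 9 genes, counting for each gene the brighter probe, and 69.0% of the probes tested had groups that did not overlap. The median log2 fold change of the 9 genes (fetal over adult basal) was -0.10 and its median size 1.13, against -0.04 and 0.53 over the main probes of all 15725 genes tested. Levels below are log2 quantile-normalized signals, in the order of replicates 1, 2 and 3, and every fold change is fetal over adult basal on that scale.

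**Figure D1:**
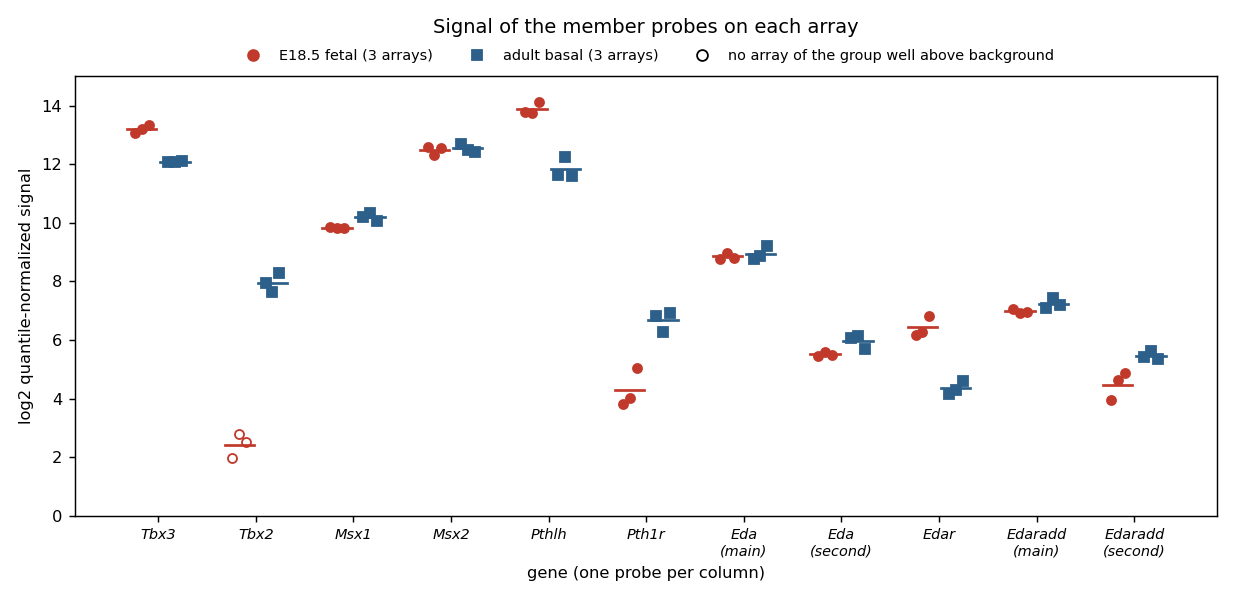
Log2 quantile-normalized signal (vertical axis) of the 11 probes of the 9 regulators (horizontal axis) on each of the 3 fetal (circles) and 3 adult basal (squares) arrays, with lines at the group means; open symbols mark a group in which no array was well above background. The fetal points of Pthlh, Edar and Tbx3 lie above the adult points, those of Tbx2 and Pth1r lie below, and those of Msx2 and of the main Eda probe overlap with them; levels of different probes cannot be set against each other.

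The ligand gene Pthlh and the receptor gene Edar, both signalling members with higher fetal signal, are shown by the 250 bases before their start site, where the factors that set transcription bind. The sequences are from RefSeq (GRCm38.p6) and run 5′ to 3′ on the strand of the gene, at chr6:147264014-147264263 on the minus strand for Pthlh and chr10:58675697-58675946 on the minus strand for Edar. Capitals mark matches on either strand to CTTTGA or CTTTGT, cores of the site bound by the Wnt effectors TCF and LEF, and to a loose form of the NF-kB site (GGG and CC with 5 bases of any kind between them).
Pthlh: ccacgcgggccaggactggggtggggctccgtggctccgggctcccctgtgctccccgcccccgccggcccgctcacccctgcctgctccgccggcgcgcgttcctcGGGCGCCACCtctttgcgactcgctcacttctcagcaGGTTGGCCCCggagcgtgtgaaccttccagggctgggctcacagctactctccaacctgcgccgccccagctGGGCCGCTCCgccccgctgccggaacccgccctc
Edar: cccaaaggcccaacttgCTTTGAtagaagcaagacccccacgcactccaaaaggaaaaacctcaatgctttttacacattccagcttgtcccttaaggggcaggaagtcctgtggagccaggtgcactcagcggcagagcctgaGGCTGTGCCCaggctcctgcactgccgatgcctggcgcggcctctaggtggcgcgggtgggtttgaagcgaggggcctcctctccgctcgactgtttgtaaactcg
The Pthlh sequence had 3 NF-kB matches, starting 143, 106 and 34 bases before the start, and no TCF/LEF core. The Edar sequence had 1 CTTTGA core 233 bases before the start and 1 NF-kB match 106 bases before it. The NF-kB match is common, being present in 45.8% of 32851 mouse promoters of the same length, while CTTTGA was in 13.8% and CTTTGT in 16.5%. Of the 9 members, 7 genes matched the promoter table, with 9 entries because Pth1r has several start sites (all but Tbx3 and Tbx2). Among these entries 7 had an NF-kB match, 3 (1 each of Edar, Edaradd and Pth1r) had a TCF/LEF core, and none had TCACACC (the T-box half-site, in 3.33% of all promoters) or TAATTG (an Msx core, in 7.17%). These matches describe letters and not bound sites.

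Among the ligands, Pthlh had the clearer difference. Fetal replicates 1, 2 and 3 had signals of 13.79, 13.74 and 14.13, and the adult basal replicates 11.63, 12.25 and 11.60. All 3 fetal values lay above all 3 adult values, and adult replicate 2 was the highest adult array. The log2 fold change was 2.06 ± 0.20 (SE, n = 3 and 3; 95% interval 1.58 to 2.53), with an adjusted p of 9.03e-05 by limma with Benjamini-Hochberg adjustment and 0.268 with Holm adjustment. Without adult basal replicate 2 the fold change was 2.27 and the Holm-adjusted p 0.0348. The difference was 2.17 on the slide that held fetal replicate 1 with adult replicates 1 and 3, and 1.69 on the slide that held the other 3 arrays.

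Eda, the ectodysplasin ligand gene, was not called by either probe. The main probe gave 8.78, 8.96 and 8.81 for the fetal replicates and 8.77, 8.87 and 9.21 for the adult ones. These values overlapped, with a log2 fold change of -0.10 ± 0.14 and a 95% interval from -0.43 to 0.23, so that a 2-fold difference in either direction lay outside the interval. The second probe, designed on another Eda transcript, gave 5.46, 5.57 and 5.50 in fetal cells against 6.05, 6.14 and 5.69. Here the adult values were all higher, by 0.45 ± 0.14 on the log2 scale (adjusted p = 0.0245 by limma with Benjamini-Hochberg adjustment), which is below the 2-fold limit.

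The receptors moved in opposite directions. Edar, the ectodysplasin receptor gene, gave 6.18, 6.27 and 6.84 for the fetal replicates and 4.15, 4.28 and 4.59 for the adult ones, and was well above background on all 6. The fetal values were all higher, with fetal replicate 3 the highest. The log2 fold change was 2.09 ± 0.20 (95% interval 1.61 to 2.56), with an adjusted p of 8.28e-05 by limma with Benjamini-Hochberg adjustment and 0.240 with Holm adjustment, and the difference was 1.81 and 2.27 within the first and the other slide. The size of this value depended on how background was treated: with a normexp correction, run without the low-signal limit that otherwise removed the probe, it was 0.87 and no longer 2-fold.

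Pth1r, the gene of the parathyroid hormone receptor, gave 3.81, 4.03 and 5.05 on the fetal arrays, of which 2 were well above background, and 6.83, 6.26 and 6.91 on the adult arrays. All adult values were higher, and fetal replicate 3 was the highest fetal array. The log2 fold change was -2.37 ± 0.33 (95% interval -3.16 to -1.59), with an adjusted p of 5.89e-04 by limma with Benjamini-Hochberg adjustment and 1 with Holm adjustment. The difference was -3.06 within the slide of fetal replicate 1 and -1.72 within the other, and the value was -1.05 with the normexp correction run in the same way.

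Edaradd, which encodes the adaptor that binds the cytoplasmic part of Edar, did not follow its receptor. Its main probe gave 7.04, 6.92 and 6.97 for the fetal replicates and 7.10, 7.44 and 7.20 for the adult ones. The groups did not overlap but lay only 0.06 apart, with a log2 fold change of -0.27 ± 0.12 (95% interval -0.55 to 0.01) and an adjusted p of 0.0858 by limma with Benjamini-Hochberg adjustment. The second, dimmer probe gave 3.94, 4.62 and 4.86 against 5.43, 5.63 and 5.34, a difference of -0.99, and lay under the low-signal limit in both groups, so that it was not tested.

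Of the T-box factors, Tbx3 and Tbx2 differed in opposite directions. Tbx3, which is required for the mammary placodes and mutated in ulnar-mammary syndrome, gave 13.07, 13.20 and 13.34 for the fetal replicates and 12.06, 12.07 and 12.10 for the adult ones. The fetal values were all higher, and the adult arrays lay within 0.04 of each other. The log2 fold change was 1.13 ± 0.11 (95% interval 0.88 to 1.37), with an adjusted p of 7.05e-05 by limma with Benjamini-Hochberg adjustment and 0.196 with Holm adjustment. It was 0.99 and 1.20 within the slides, so the value sits close to the 2-fold limit.

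Tbx2, the nearest relative of Tbx3, had the largest difference of the 9 genes. Its probe gave 7.95, 7.64 and 8.30 on the adult basal arrays and was well above background on each, while the fetal arrays read 1.95, 2.79 and 2.51, none of them well above background. The fold is therefore a bound: the adult mean was at least 18.2-fold higher than the fetal mean, each fetal array being set to the lowest signal that counted as well above background there. The fitted log2 fold change was -5.54 ± 0.25, with an adjusted p of 0.00134 by limma with Holm adjustment, and the measured difference was -6.17 and -4.99 within the slides. Tbx2 was called under Holm adjustment in 17 of 17 alternatives that tested it with that adjustment, where the fitted value ran from -5.77 to -2.15.

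The homeobox factors differed little. Msx1 gave 9.87, 9.83 and 9.81 for the fetal replicates and 10.22, 10.35 and 10.05 for the adult ones. The adult values were all higher by a small step, with a log2 fold change of -0.37 ± 0.11 (95% interval -0.63 to -0.11; adjusted p = 0.0219 by limma with Benjamini-Hochberg adjustment), under the 2-fold limit. Msx2 gave 12.58, 12.31 and 12.57 against 12.70, 12.51 and 12.42. These values overlapped, with a log2 fold change of -0.06 ± 0.13 whose 95% interval ran from -0.36 to 0.24, and its sign turned when fetal replicate 2 or adult basal replicate 1 was left out.

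**Figure D2:**
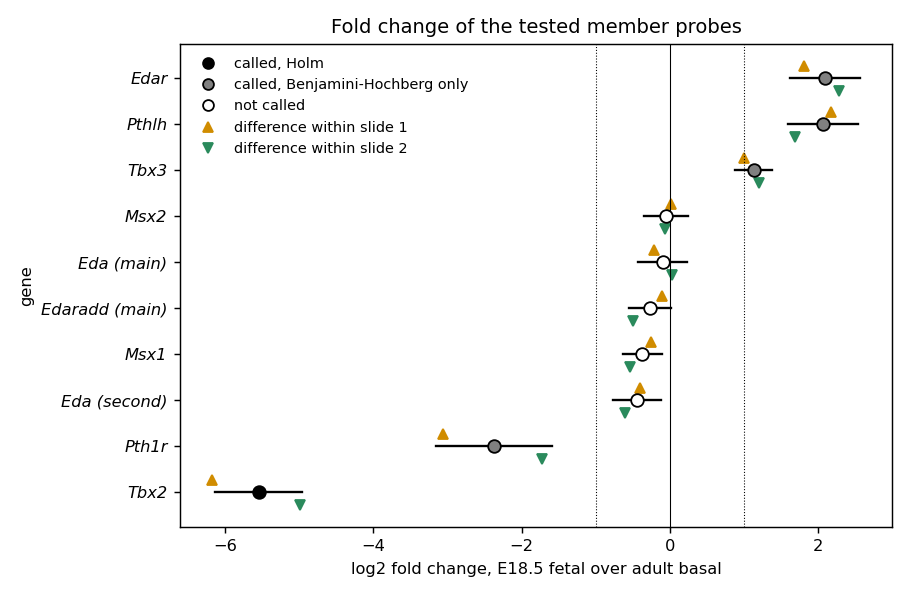
Log2 fold change, fetal over adult basal (horizontal axis), of the 10 regulator probes that were tested (vertical axis), with 95% intervals from limma as lines, called probes filled, and the differences within each of the 2 slides as triangles; dotted lines mark 2-fold. Edar, Pthlh and Tbx3 lie to the right and Pth1r and Tbx2 to the left in both slides; the value of Tbx2 is the fitted one, and its bound is 18.2-fold.

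Cell type markers were measured on the same arrays, because a sorted bulk sample that holds fewer cells of a type cannot be told apart from one with less RNA per cell. For the marker counts here and below, the shares called over all tested probes were 11.1% with Holm and 30.0% with Benjamini-Hochberg adjustment. Of 7 basal and myoepithelial markers, 5 were called with Holm adjustment and all 5 were higher in adult basal cells, among them the contractile genes Acta2 (smooth muscle actin, log2 fold change -4.07) and Myh11 (smooth muscle myosin, -8.63). The summed linear signal of the 7 was 65385, 57723 and 52042 for the fetal replicates and 818586, 756887 and 747239 for the adult ones, with Acta2 the brightest. Trp63, a basal cell regulator, did not pass by its main probe (-0.08), whereas its second probe had a log2 fold change of -3.06. The keratin gene Krt5 read 13.38, 12.77 and 13.49 in the fetal samples and 17.31, 17.06 and 16.98 in the adult samples, without overlap. Krt14 read 13.78, 13.37 and 13.36 against 15.25, 13.39 and 15.46, where adult replicate 2 fell in the fetal range. Krt5 and the contractile genes thus exceeded the fetal values on all 3 adult arrays, and Krt14 did so on 2. A difference from fetal cells does not test the basal label itself.

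The 3 luminal markers called with Holm adjustment, of 8 tested, were higher in fetal cells, as Pthlh, Edar and Tbx3 were. They were Elf5 (a luminal progenitor factor, log2 fold change 7.55), Foxa1 (a partner of the estrogen receptor, 6.46) and Pgr (the progesterone receptor, 2.13), while Krt18, the brightest of the 9 listed, differed by 0.58. With slide as a block Pgr no longer passed (adjusted p = 0.0810 by limma with Holm adjustment). With Benjamini-Hochberg adjustment 4 were higher in fetal cells and 1, Krt19 (-1.22), was higher in adult basal cells. The main probe of Prlr (the prolactin receptor) was at -0.35, which did not reach 2-fold, and its other probe at 1.85. Esr1 (an estrogen receptor) was not tested by its main probe and was higher in adult basal cells by another (-3.58, Benjamini-Hochberg only), which was well above background on 1 fetal array. The luminal list summed to 187759, 194407 and 148442 for the fetal replicates and 118290, 110070 and 110841 for the adult ones. The part of this shift in the values of Pthlh, Edar and Tbx3 was not tested.

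Some fibroblast and mesenchyme markers, but not all, passed as higher in adult basal cells, as Tbx2 and Pth1r did. Of 9 tested, 5 were called with Benjamini-Hochberg adjustment, all higher in adult basal cells: Pdgfrb (-4.34), Dcn (-3.78), Twist2 (-2.20), Col6a3 (-1.36) and Lum (-1.05), of which Pdgfrb and Dcn also passed with Holm adjustment. The 10 listed genes summed to 5656, 5985 and 7372 for the fetal replicates and 16595, 19120 and 27758 for the adult ones. Their brightest gene was Col1a2, which differed by -0.90 without passing. Col1a1 overlapped between the groups, and Dpt was well above background on the 3 adult arrays but on no fetal array. Of 4 endothelial markers tested, 2 were called with Benjamini-Hochberg adjustment as higher in adult cells (Cdh5, -2.70, and Cldn5, -1.40). With Holm adjustment in limma 0 were called (2 had an unadjusted p under 0.05), and Pecam1 (-0.14) and Kdr (-0.04) overlapped between the groups. Tek, which was not tested, was well above background on the 3 adult arrays but on no fetal array. Fetal replicate 3 was the highest fetal array for Pth1r, Edar, Pthlh and Tbx3. It was also the highest fetal array for each of the 10 listed fibroblast and mesenchyme genes. The same held for the listed adipocyte genes and for the listed endothelial genes other than Pecam1. Among these were Cdh5 and the adipocyte gene Adipoq, the latter at 8.17 against 5.62 and 3.99. For some of these genes the margin over the next fetal array was small. Both gates took EpCAM-positive cells. The paper places stromal cells in the EpCAM-negative fraction in its description of the fetal gland, which does not cover the adult samples. Cells with CD31 were removed from both groups, and cells with BP-1 from the adult samples. The part of stromal cells in the Tbx2 and Pth1r values was not tested. Without fetal replicate 3 the values were -2.72 for Pth1r, 1.87 for Edar, 1.94 for Pthlh and 1.06 for Tbx3. All of these were still called with Benjamini-Hochberg adjustment.

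Epidermal markers, of which 5 were tested, were divided: Krt10 (1.47) and Krt1 (1.95) were higher in fetal cells, Krt15 (-3.85) and Sbsn (-1.51) in adult basal cells, and Lor (0.87) did not pass. Their summed signal was 3831, 3424 and 3264 for the fetal replicates and 12856, 17670 and 19926 for the adult ones, with Krt15 the brightest. Of 5 leukocyte markers tested 1 was called with Benjamini-Hochberg adjustment (Lyz2, -1.76), and of 4 adipocyte markers none was called by limma with either adjustment, although 2 had an unadjusted p under 0.05.

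**Figure D3:**
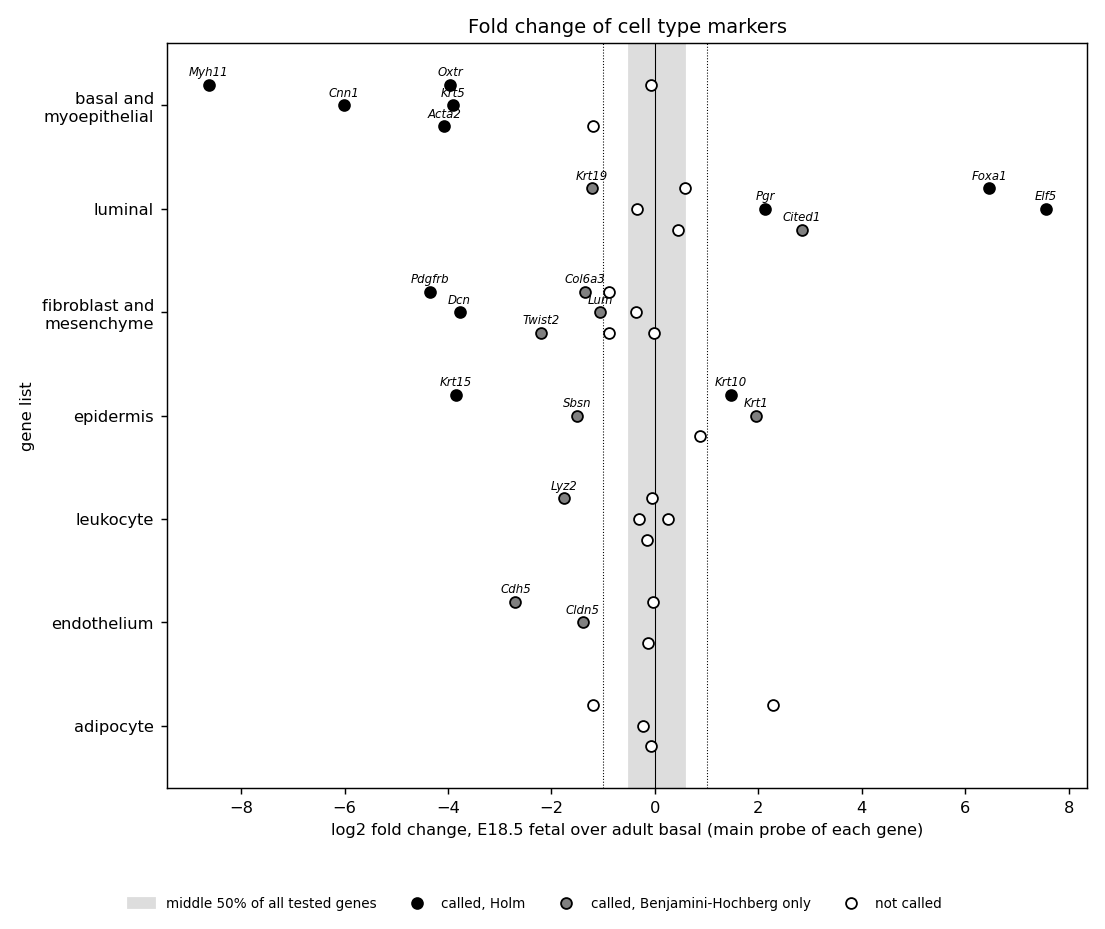
Log2 fold change, fetal over adult basal (horizontal axis), of the main probe of each tested marker gene, by cell type (vertical axis), with genes called by Holm adjustment in black and by Benjamini-Hochberg adjustment only in grey; the band holds the middle 50% of all tested genes and dotted lines mark 2-fold. The called basal and fibroblast markers lie to the left, and all called luminal markers but Krt19 lie to the right.

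Around the ectodysplasin receptor, 16 genes of the receptor family, its kinases and NF-kB were listed. Of 15 tested, 1 was higher in fetal and 2 were higher in adult basal cells with Benjamini-Hochberg adjustment, and 12 did not pass. Over all tested probes, 30.0% were called by this rule. The median log2 fold change of the list was -0.23. Nfkbia, the NF-kB inhibitor that is itself an NF-kB target, gave 15.30, 15.60 and 15.42 on the fetal arrays against 13.49, 13.09 and 13.46 on the adult arrays. All fetal values were higher, with a log2 fold change of 2.10 ± 0.15 and an adjusted p of 0.0273 by limma with Holm adjustment, and its fold change ran from 1.97 to 2.18 over all alternatives. The Holm call was lost when any array other than adult basal replicate 2 was left out, with slide or replicate as a block (adjusted p = 0.129 and 0.338 by limma), with no low-signal filter, with or without the offset, and when probes without a gene match were kept. The other 2, picked out after their values were seen, were Cyld (-1.13 ± 0.13), a deubiquitinase that restrains NF-kB, which was at -0.98 and under 2-fold with the normexp correction, and Relb (-1.05 ± 0.19), an NF-kB subunit whose value came within 2-fold with slide as a block (-0.93) and when 1 of 3 single arrays was left out (-0.89 without fetal replicate 3, -0.98 without adult basal replicate 1 and -0.99 without adult basal replicate 3). Of the genes that did not pass, Traf6, Ikbkb, Ikbkg and Nfkb1 had values from -0.23 to -0.09, inside the middle 50% of all tested genes, and Rela, the brightest of the list, was at 0.57. Chuk (-0.96), Nfkb2 (-0.90), Tab2 (-0.76), Tnfrsf19 (0.82) and Map3k7 (0.83) lay outside that range by their main probes, without overlap between the groups but under 2-fold. The median size of the log2 fold change was 0.76 for the list and 0.53 for all tested genes.

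Around Pthlh and Pth1r, 14 genes of the hormone family, its processing and the coupling of the receptor were listed. Of these, 11 were tested and 1 was called by either adjustment. Over all tested probes, 30.0% were called with Benjamini-Hochberg and 11.1% with Holm adjustment. The median log2 fold change of the list was 0.26. Arrb1, a beta-arrestin that binds activated receptors and ends their G protein signalling, gave 11.46, 11.61 and 11.31 for the fetal replicates and 14.44, 14.50 and 14.33 for the adult ones. The groups lay far apart, with a log2 fold change of -2.97 ± 0.12 and an adjusted p of 5.07e-04 by limma with Holm adjustment. Its relative Arrb2 gave 7.73, 7.88 and 8.14 for the fetal replicates and 7.59, 5.65 and 7.89 for the adult ones. These groups overlapped, adult basal replicate 2 was low, and the value of 0.88 did not pass (-0.0059 and 2.36 within the slides). Gnas, the stimulatory G protein gene that carries the receptor signal to cyclic AMP, was at 0.39. Pth, Pth2r and Casr did not rise well above background on any of the arrays.

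Among 22 other T-box, Msx and Dlx genes, 12 were tested with the main probe. None was called by limma with either adjustment, although 3 had an unadjusted p under 0.05. Over all tested probes, 30.0% were called with Benjamini-Hochberg and 11.1% with Holm adjustment. The median log2 fold change of the list was -0.13. The values ran from -0.74 for Tbx22 to 0.73 for Dlx4. Tbx6, picked out after its values were seen, had probes that disagreed: the main probe gave 0.03 ± 0.11, and the other -4.07 ± 0.31, with fetal values of 6.40, 7.04 and 6.16 and adult values of 9.99, 10.93 and 10.90 (adjusted p = 2.69e-05 by limma with Benjamini-Hochberg adjustment, by which this probe was called, and 0.0560 with Holm adjustment). No array gave Tbx4, Tbx18, T or Dlx1 a signal well above background.

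The list of other placode and bud genes held 32 genes, of which 23 were tested. With Benjamini-Hochberg adjustment 4 were called as higher in fetal and 4 as higher in adult basal cells, and 15 did not pass. Over all tested probes, 30.0% were called by this rule. The median log2 fold change of the list was 0.04. Sostdc1, a secreted inhibitor of Wnt and BMP signals, gave 12.76, 12.58 and 12.94 for the fetal replicates and 7.91, 7.82 and 7.80 for the adult ones. The log2 fold change was 4.92 ± 0.12 (adjusted p = 1.99e-05 by limma with Holm adjustment), and its second probe gave 4.33. Wnt10a and Tnc went the other way. Wnt10a, a placode Wnt ligand, gave 8.99, 8.57 and 9.14 against 12.24, 12.05 and 11.90, a log2 fold change of -3.16 ± 0.17 (adjusted p = 0.00486 by limma with Holm adjustment, and 0.0588 and 0.0863 without adult basal and fetal replicate 1 respectively). Tnc, a matrix protein of the bud mesenchyme and of myoepithelium, gave 7.33, 7.12 and 7.02 against 9.83, 9.99 and 9.92 by its main probe, a log2 fold change of -2.76 ± 0.12 (adjusted p = 9.43e-04 by limma with Holm adjustment), but -0.16 ± 0.24 by a second probe.

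The other 5 bud genes called with Benjamini-Hochberg adjustment only, named after their values were seen, were Kremen2 (2.90 ± 0.29), a Dickkopf receptor, the Wnt ligand gene Wnt6 (2.15 ± 0.19) and the zinc finger factor Trps1 (1.54 ± 0.16) on the fetal side. Kremen2 was well above background on 2 of the 3 adult arrays, and its value was 1.37 with the normexp correction run without the low-signal limit. On the adult basal side they were the Hedgehog receptor gene Ptch1 (-1.15 ± 0.23) and the R-spondin receptor gene Lgr4 (-1.10 ± 0.15). All 3 probes of Trps1 had higher fetal signal, and 1 of them, not the brightest, passed with Holm adjustment (1.80 ± 0.13, adjusted p = 0.0322 by limma), a call that was lost with slide as a block (0.0649) and when any single array was left out. Lgr4 was at -0.94 without adult basal replicate 1, and Ptch1 at -0.95 without fetal replicate 2, and with the normexp correction they were at -0.99 and -0.83. Of the genes that did not pass, Gata3 (0.15) and Bmp4 (0.73) were well above background on all arrays by their main probes. Fgf10, Nrg3, Erbb4 and Shh, among the 9 that were not tested, were well above background on none. Over the 4 lists together, 61 of 84 genes were tested. Of these, 12 were called with Benjamini-Hochberg adjustment, 5 higher in fetal and 7 higher in adult basal cells. Of the 12, 5 also passed with Holm adjustment. By the same rules, 4667 of all 15725 tested genes were called with Benjamini-Hochberg and 1765 with Holm adjustment.

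**Figure D4:**
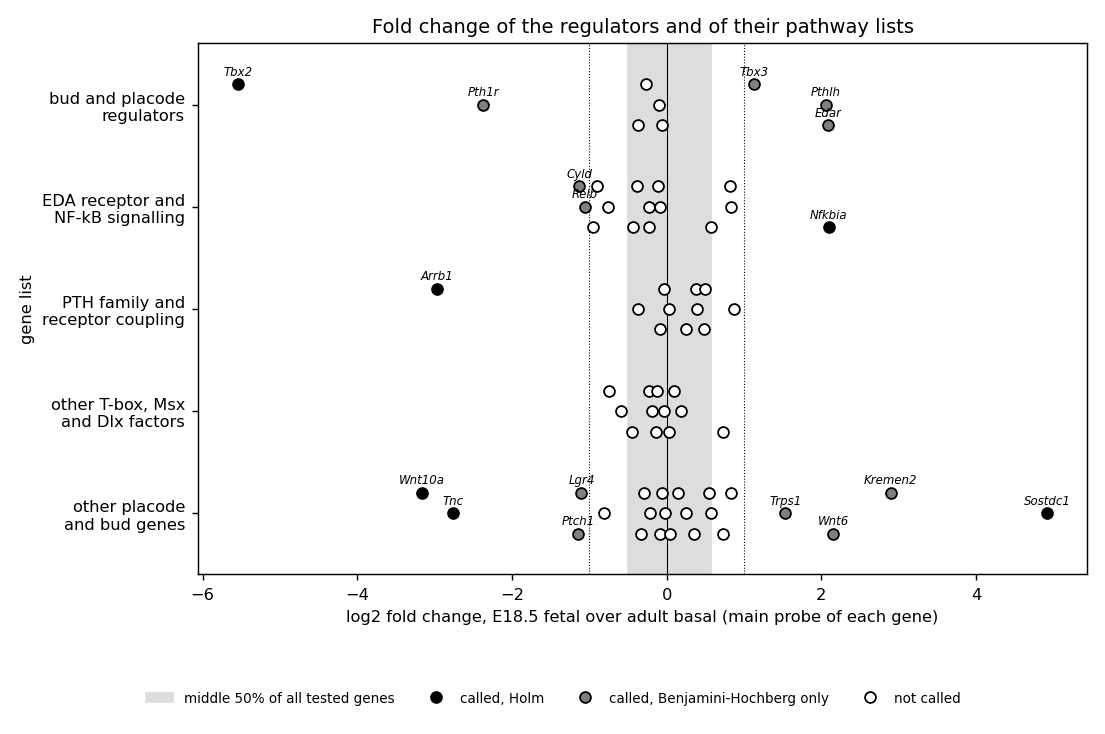
Log2 fold change, fetal over adult basal (horizontal axis), of the main probe of each tested gene among the 9 regulators and the 4 pathway lists (vertical axis), with genes called by Holm adjustment in black and by Benjamini-Hochberg adjustment only in grey; the band holds the middle 50% of all tested genes and dotted lines mark 2-fold. Most genes of the NF-kB, receptor coupling and T-box lists lie within 2-fold, and Sostdc1 (4.92) and Tbx2 (-5.54, a fitted value) are the extremes.

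For the 7 regulators well above background on all 6 arrays, which leaves out Tbx2 and Pth1r, the genes whose values followed them most closely were taken from 15255 genes well above background, by Pearson's r as a description. For Tbx3 they were 2610318N02Rik and Rasl11b (r = 0.999 for both), for Pthlh Bcas1 and Sntb1 (0.999 for both), and for Edar Fam117a and Cdc25a (0.998 and 0.997). In each case r mostly reflects the gap between the groups, because the 6 points fall into 2 clusters. Among members with a small gap, Msx1 was followed by Def6 and Crxos (0.996 and 0.993), Msx2 by Lpo and Tle5 (0.993 and 0.991), Edaradd by Ddx42 and 1110017D15Rik (0.998 for both) and Eda by Cpne3 and Cela3a (0.943 and 0.933). With 6 arrays and this many candidates, such values of r carry no test.

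**Figure D5:**
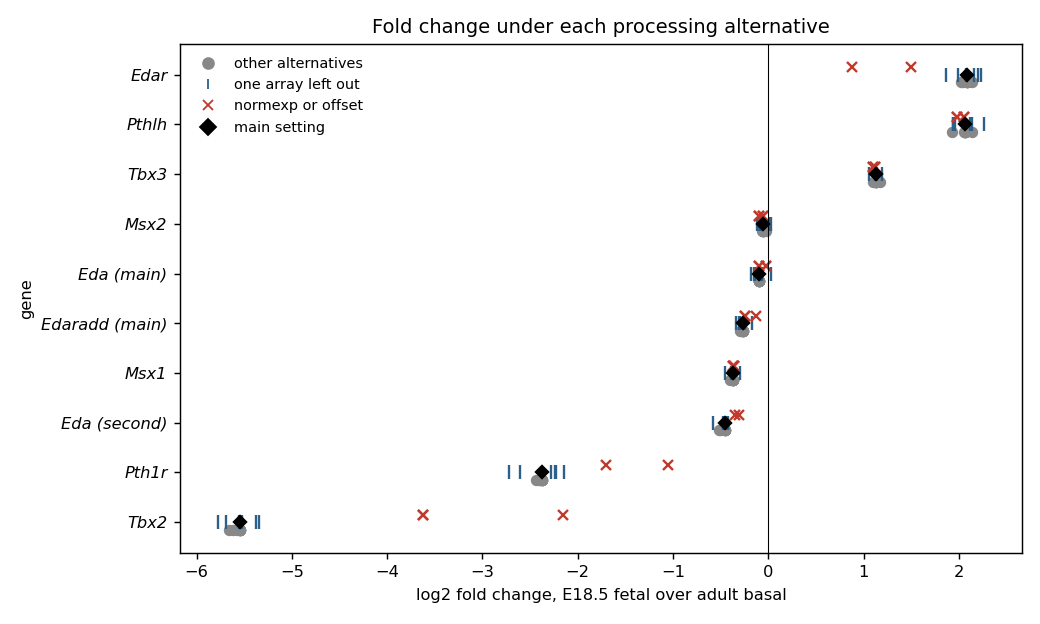
Log2 fold change, fetal over adult basal (horizontal axis), of each tested regulator probe (vertical axis) in the main setting (diamonds) and under each processing alternative, with settings that leave out an array as bars and settings with a normexp correction or an added offset as crosses. The 3 probes dim in a group (Edar, Pth1r and Tbx2) shrink toward 0 under those settings, to as little as 0.87, -1.05 and -2.15, while Tbx3 and Pthlh stay near 1.13 and 2.06.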

How the data were processed

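RNA was hybridized to 1 array for each of 3 E18.5 fetal and 3 adult basal samples, grouped by their labels. The authors deposited spot intensities from Agilent Feature Extraction 11.0.1.1, already background-subtracted within each array, and a table of log2 values that they had quantile normalized, which was used as an alternative. Per the labels and the methods the labelling kits are named differently. Control and outlier spots (104 to 326 an array) were left out here, log2 processed intensities were averaged over the spots of a probe, and quantile normalization was applied to the 6 arrays. Probes were named by matching accessions to a RefSeq table (GRCm38.p6), since the files hold no gene names. Probes below the midpoint of the lowest and middle of 3 k-means clusters (100 starts, seed 1; log2 5.949) in both groups were removed. Limma 3.58.1 (R 4.3.3) was used for the tests, by lmFit followed by eBayes. Tables and plots used Python 3.11.15, pandas 2.3.3, numpy 2.4.6 and matplotlib 3.10.9. The brightest probe of a gene on average was its main probe. The share of probes well above background ran from 76.4% to 83.3% of an array, and no spot was saturated. An exact permutation test of 3 against 3 cannot give a p under 0.10, so none was used. Arrays lay on 2 slides, each holding both groups, and values within slides are given. The members and the lists were chosen with earlier results of these data known. The genes named by a fixed rule were the 9 members with every probe and the markers. They also included, for each list, at most the 3 genes with the largest Holm-called change in each direction. For each member well above background on all arrays the 2 genes most alike were added. The other list genes given with values were picked after their values were seen. The fits were also run on simulated data, of which no values are given here. A gene of the placode and bud list is not reported here, and the counts of that list leave it out.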

Additional observations from a re-analysis of the deposited data

How the results depend on the processing

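The precision is limited by 3 arrays in a group, and by signal near background for Tbx2, Pth1r and Edar. The 2270 probes called in all became 1182 with no low-signal filter, 6133 with Benjamini-Hochberg adjustment, and 948 to 1949 when 1 array was left out. The 1 called member became 0 with the normexp correction, where Tbx2 fell under the low-signal filter, 5 with Benjamini-Hochberg adjustment, 2 with eBayes with a trend and robust estimation (Tbx3 added, Holm-adjusted p = 0.0245 by limma), and 1 to 2 with an array left out (Pthlh added without adult basal replicate 2). The 5 list genes called became 12 with Benjamini-Hochberg adjustment and 3 to 6 with an array left out, being 3 without adult basal replicate 1 or fetal replicate 1. The 5 members called with Benjamini-Hochberg adjustment became 2 after normexp correction and 3 after adding an offset of 16, because dim probes dropped under the filter. With no filter, an alternative chosen after seeing the data, they were 4 (Edar at 0.87) and 5. The value of Msx2 ran from -0.12 to 0.032 with an array left out, being 0.020 without adult basal replicate 1 and 0.032 when fetal replicate 2 was dropped. That of Eda ran from -0.19 to 0.033, the last without adult basal replicate 3. Slide as a block, averaging over a gene's probes, the deposited values, 75th percentile normalization, filtering by detection above background and the inclusion of probes without a gene left the number of members called at 1 with Holm and 5 with Benjamini-Hochberg adjustment. Scan was the same split as slide and gave no fit of its own.

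With the replicate number as a block, 1302 probes were called in all, with 1 member and 4 list genes called with Holm adjustment and 5 members with Benjamini-Hochberg adjustment. The numbers did not pair the samples: deviations from the group means of same-numbered arrays correlated at -0.03, 0.09 and 0.05.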
